A study of Homo sapiens with 12 samples.

Results

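The effects of 1,2-DHN and of asparagine, each given alone to the same cells, were set against each other across all genes. The cells were SRA01/04, a line of human lens epithelium that has been immortalised. They received either 1,2-DHN without asparagine (the group DHN, 3 libraries) or asparagine without 1,2-DHN (the group NC-A, 3 libraries), and RNA was taken at 24 hours. These 6 libraries were chosen by their labels out of 12 in the series. The other two groups were cells given neither compound (NC, 3 libraries), used below to place each difference, and cells given both (DHN-A, 3 libraries). Both enter the filter on low counts and the estimate of replicate spread. The line is a single immortalised line, so all groups share its genotype and its immortalisation. Doses, vehicle and the cultures behind each library are not stated in the labels, so a p-value below measures only the spread between these libraries, and the sizes below hold for the doses that were used.

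1,2-DHN (1,2-dihydroxynaphthalene) is a metabolite of naphthalene that is oxidised to a quinone. Quinones react with the thiol groups of proteins and of glutathione. Cells answer damaged proteins through heat shock factor 1, which switches on chaperone genes, and they answer reactive compounds through NRF2, which switches on genes of glutathione, thioredoxin and iron handling. Asparagine is an amino acid that cells make with the enzyme asparagine synthetase. The amino acid response, carried by the factor ATF4, raises enzymes of amino acid synthesis, amino acid transporters and tRNA synthetases, and is also used by other stresses. The lens has little protein turnover in its fibre cells, and its epithelium holds the enzymes that keep proteins folded and reduced.

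The DHN libraries held 12381071 to 21318168 counts and the NC-A libraries 13529028 to 17478970. Between libraries of 1 group, the median absolute log2 difference of a gene was 0.0743 to 0.0925, and between a DHN and an NC-A library it was 0.220 to 0.236, over 12228 genes whose mean reached 50 counts. No pair of libraries differed by as little as counting noise, with a mean chi-square per gene of 1.74 or more. NC-A 1 stood apart from NC-A 2 and NC-A 3. On the first principal component of all 17889 tested genes it lay at -73.5, against -16.2 and -14.2 for NC-A 2 and NC-A 3. On protein-coding genes alone the values were -31.0, -27.4 and -26.1. Processed pseudogenes, copies of messenger RNAs in the genome, held 0.195% of the counts of NC-A 1, against 0.399% and 0.409% in NC-A 2 and NC-A 3 and 0.420% to 0.453% in DHN. Levels are given as CPM, counts scaled to a common library size. EEF1A1P11, a pseudogene copy of a translation elongation factor gene, measured 0.443, 51.5 and 49.5 CPM in NC-A 1 to 3 and 46.6, 51.3 and 59.3 in DHN 1 to 3. The origin of this gap was not tested, and the main counts below are given with and without NC-A 1.

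**Figure D1:**
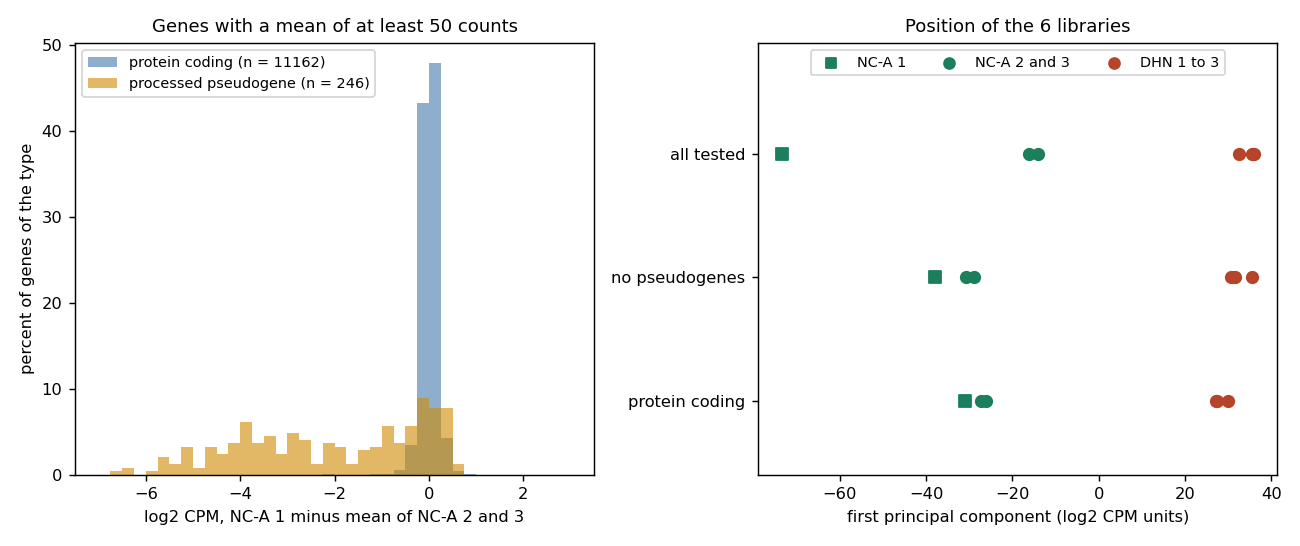
Left, the distribution over genes of log2 CPM in NC-A 1 minus the mean of NC-A 2 and NC-A 3, as a percent of the genes of each type, for protein-coding genes and processed pseudogenes whose mean reached 50 counts. Right, the position of the 6 libraries on the first principal component of log2 CPM for 3 choices of genes; NC-A 1 (square) lies at -73.5 over all tested genes and at -31.0 over protein-coding genes, where NC-A 2 lies at -27.4.

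A gene was called when edgeR's quasi-likelihood test gave a Benjamini-Hochberg adjusted p under 0.05 over all 17889 tested genes. The treatments differed in 7571 genes (42.3%), 3783 of them higher in DHN (21.1%) and 3788 lower in DHN (21.2%). Most differences were small. The median absolute log2 change was 0.37 among genes higher in DHN and 0.39 among genes lower in DHN, and 810 called genes (4.53%) differed by at least 2-fold, 492 of them higher in DHN (2.75%) and 318 lower (1.78%). The large changes lay on the 1,2-DHN side: at least 8-fold, 50 genes were higher in DHN and 5 lower. The 3 DHN and 3 NC-A CPM values did not overlap in 9021 tested genes (50.4%), so a lack of overlap alone does not set a gene apart. Called genes that were higher in DHN took 26.2% to 26.3% of the counts of the NC-A libraries and 33.7% to 33.8% of those of the DHN libraries. Without NC-A 1, 6985 of 18527 tested genes were called (37.7%), 3497 higher in DHN (18.9%) and 3488 lower (18.8%), and 789 (4.26%) differed by at least 2-fold, 480 higher (2.59%) and 309 lower (1.67%). Both fits called 6647 genes, all in the same direction, and 670 of the 810 genes that differed by at least 2-fold were called in the same direction without NC-A 1.

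**Figure D2:**
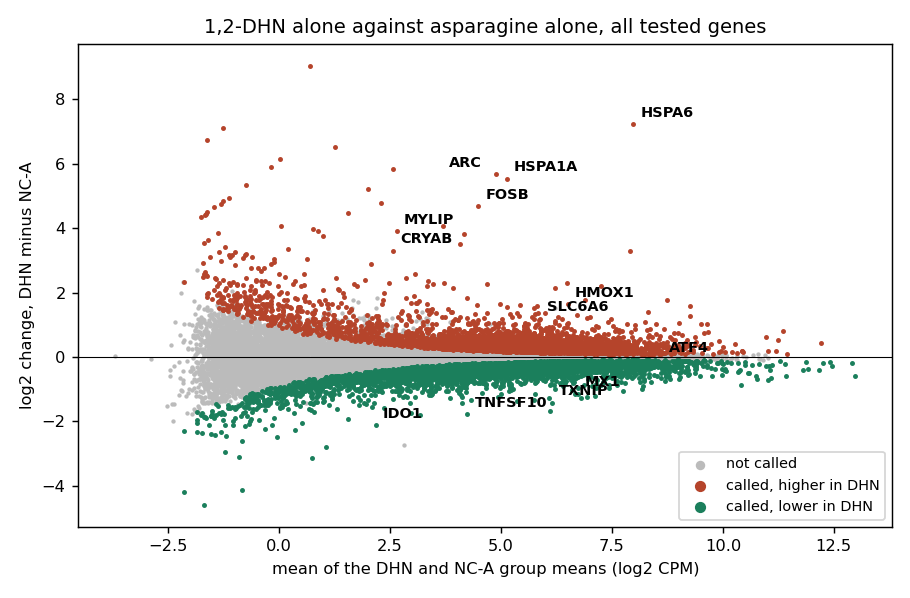
Each point is a tested gene, with the mean of the 2 group means (log2 CPM) on the horizontal axis and the log2 change, DHN minus NC-A, on the vertical axis; red points were called higher in DHN, green points lower in DHN and grey points were not called. Of the genes with labels, HSPA6 lies highest at 7.23 and IDO1 lowest at -2.12.

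Both treatments had been compared with the same untreated libraries, so their changes against NC are set side by side and not correlated. Against NC, 1,2-DHN alone changed 3520 genes upward (19.7%) and 3399 downward (19.0%), and asparagine alone changed 1668 upward (9.32%) and 1944 downward (10.9%). Of the 492 genes at least 2-fold higher in DHN than in NC-A, DHN lay further from NC than NC-A did in 389 (79.1%). Among the 318 genes at least 2-fold lower in DHN, DHN lay further in 178 (56.0%) and NC-A in 140. Over all 17889 tested genes, DHN lay further in 10607 (59.3%), near the share among the 2-fold lower genes. Among called genes of any size, DHN lay further in 71.4% of those higher in DHN and in 69.7% of those lower. The share among the 2-fold lower genes was below both. A difference between the treatments could therefore come from a change by either compound. Both changes are given for part of the genes and lists that follow. Elsewhere, higher or lower in DHN means relative to NC-A only and does not say which compound changed the gene.

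Chaperone genes of the HSP70 group were mostly higher after 1,2-DHN than after asparagine. Among HSP70 proteins and their partners, 15 of 17 tested members were higher in DHN and 1 lower, with a median log2 change of 0.999 (15, 1 and 0.93 without NC-A 1). In this form, each list below is followed by its counts higher and lower and its median in the fit without NC-A 1. Over all tested genes the median log2 change was -0.012, with 21.1% called higher in DHN and 21.2% called lower. Of tested protein-coding genes, 50.9% were called in either direction. The counts of every list are to be read beside these shares. HSPA6, a strictly stress-inducible HSP70 (chromosome 1, 161524540 to 161526910, GRCh38), measured 3.18, 3.27 and 3.56 CPM in NC-A 1 to 3 and 505, 493 and 511 in DHN 1 to 3. The libraries of each treatment lay close together and the groups were far apart, a log2 change of 7.23 ± 0.11 (SE, edgeR adjusted p = 6.8e-50) and of 7.19 without NC-A 1. HSPA1A, the main inducible HSP70, measured 1.33, 1.599 and 1.49 CPM in NC-A 1 to 3 and 69.8, 67.1 and 69.3 in DHN 1 to 3, a log2 change of 5.53 ± 0.19 (SE, edgeR adjusted p = 4.8e-32). HSPA6 and HSPA1A each have a near-identical gene copy, so reads may have been lost or split between the copies. BAG3, which hands HSP70 clients to autophagy, measured 186, 198 and 197 CPM in NC-A and 661, 663 and 662 in DHN. HSPH1, an exchange factor of HSP70, measured 357, 357 and 365 CPM in NC-A and 878, 866 and 846 in DHN. Their log2 changes were 1.77 (edgeR adjusted p = 4.2e-36) and 1.26 (edgeR adjusted p = 9.0e-31). Against NC the HSP70 list moved by a median of 0.91 in DHN and -0.20 in NC-A.

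The DNAJ, HSP90, HSP60, chaperonin and small heat shock lists were also higher in DHN. Chaperone genes of the endoplasmic reticulum went both ways. Of these, 11 of 25 tested members were higher in DHN and 9 lower, median 0.025 (11, 9 and -0.014 without NC-A 1). Most were below NC in both treatments, with 18 lower and 4 higher in DHN and 17 lower and 1 higher in NC-A. The medians against NC were -0.22 in DHN and -0.23 in NC-A. DNAJB9, called higher in DHN than in NC-A, and DNAJC3, not called between them, are also members of the DNAJ cochaperone list. Of the DNAJ cochaperones, which deliver clients to HSP70, 8 of 10 tested members were higher in DHN and 0 lower, with a median log2 change of 0.38 (8, 0 and 0.36 without NC-A 1). DNAJB1, the J protein induced by heat, measured 181, 170.1 and 175 CPM in NC-A 1 to 3 and 463, 462 and 465 in DHN 1 to 3, a log2 change of 1.40 ± 0.039 (SE, edgeR adjusted p = 3.2e-31). For HSP90, HSP60 and the chaperonin ring, 15 of 17 tested members were higher in DHN and 1 lower, with a median log2 change of 0.36 (14, 1 and 0.35 without NC-A 1). HSP90AA1, the inducible HSP90, changed by 0.82 (edgeR adjusted p = 2.2e-16), AHSA1, its activator, by 0.94 (edgeR adjusted p = 2.0e-22), and TCP1, a chaperonin subunit, by 0.55 (edgeR adjusted p = 1.8e-16). In the small heat shock proteins, which hold unfolded proteins, 4 of 4 tested members were higher in DHN and 0 lower, with a median log2 change of 1.92 (4, 0 and 1.91 without NC-A 1); 9 members were listed. CRYAB, the alpha-B crystallin that is also a lens structural protein (chromosome 11, 111908565 to 111923722), measured 1.18, 1.38 and 0.747 CPM in NC-A 1 to 3 and 12.1, 10.8 and 9.39 in DHN 1 to 3. This was a log2 change of 3.30 ± 0.25 (SE, edgeR adjusted p = 8.5e-17). HSPB1, the abundant member of the family, measured 308, 307 and 301 CPM in NC-A and 880.1, 913 and 956 in DHN, a log2 change of 1.59 (edgeR adjusted p = 2.8e-33). The groups did not overlap in CRYAB or in HSPB1.

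Promoters of these genes were searched for the heat shock element, the inverted repeat that heat shock factor binds (3 units of GAA and its complement TTC in turn, with 2 bases between units, on either strand, where overlapping matches were all counted). The windows, from RefSeq on GRCh38.p14, run from 250 bases before to 50 bases after each start. Of 48 tested members of the 4 chaperone lists, 42 had a promoter there, and 8 of those genes (19.0%) held the element, against 0.608% of all 27305 genes of the table. All of the 8 were called higher in DHN, with a median log2 change of 0.75 and medians against NC of 0.70 in DHN and -0.16 in NC-A. Of all 48 tested members, with or without the element, 42 were called higher in DHN. The stretches around the element are shown for 3 of them because they span the range from a gene nearly silent in NC-A to one of the most abundant messages, with capitals marking the element.
HSPA6 (chr1:161524406-161524538, plus strand): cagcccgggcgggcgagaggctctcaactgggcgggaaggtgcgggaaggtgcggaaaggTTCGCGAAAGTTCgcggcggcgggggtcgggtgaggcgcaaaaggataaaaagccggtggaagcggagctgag
CHORDC1 (chr11:90223027-90223169, minus strand): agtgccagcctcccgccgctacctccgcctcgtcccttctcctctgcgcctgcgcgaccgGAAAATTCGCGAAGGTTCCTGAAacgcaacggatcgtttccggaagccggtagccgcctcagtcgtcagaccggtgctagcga
HSP90AA1 (chr14:102087060-102087192, minus strand): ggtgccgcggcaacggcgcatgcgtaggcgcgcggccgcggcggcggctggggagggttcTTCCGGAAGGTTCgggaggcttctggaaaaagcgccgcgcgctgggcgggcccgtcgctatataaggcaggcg
In HSPA6 the element began 74 bases before the start and in HSP90AA1 88 bases before it. CHORDC1, a partner of HSP90, held 3 overlapping matches, beginning 60, 55 and 50 bases before the start. Its level was 74.7, 73.9 and 79.3 CPM in NC-A and 179.7, 186 and 176 in DHN, a log2 change of 1.25 (edgeR adjusted p = 1.6e-26).

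Genes that tag and degrade proteins were higher in DHN as well. Of the proteasome subunits, 22 of 31 tested members were higher in DHN and 0 lower, with a median log2 change of 0.21 (22, 0 and 0.19 without NC-A 1). PSMC4, an ATPase of the regulatory particle, measured 340.003, 361 and 349.9 CPM in NC-A and 538, 537 and 545 in DHN, a log2 change of 0.62 (edgeR adjusted p = 1.9e-19). Of the ubiquitin and p62 genes, 7 of 8 tested members were higher in DHN and 1 lower, with a median log2 change of 0.44 (7, 1 and 0.43 without NC-A 1). ZFAND2A, a stress-induced partner of the proteasome, measured 25.7, 28.7 and 30.3 CPM in NC-A and 86.9, 84.4 and 81.05 in DHN, a log2 change of 1.57 (edgeR adjusted p = 3.9e-25). SQSTM1, the p62 receptor that brings ubiquitin-tagged protein to autophagy, changed by 0.87 (edgeR adjusted p = 1.3e-21), and the ubiquitin gene UBB by 0.55. MRPL18, a mitochondrial ribosomal protein, measured 73.6, 74.9 and 71.9 CPM in NC-A and 173, 170.02 and 172 in DHN. Its list as a whole had 4 of 34 members higher and 10 lower in DHN, median -0.044. The share of that list called, 41.2%, was near the 42.3% of all tested genes and below the 50.9% of tested protein-coding genes.

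**Figure D3:**
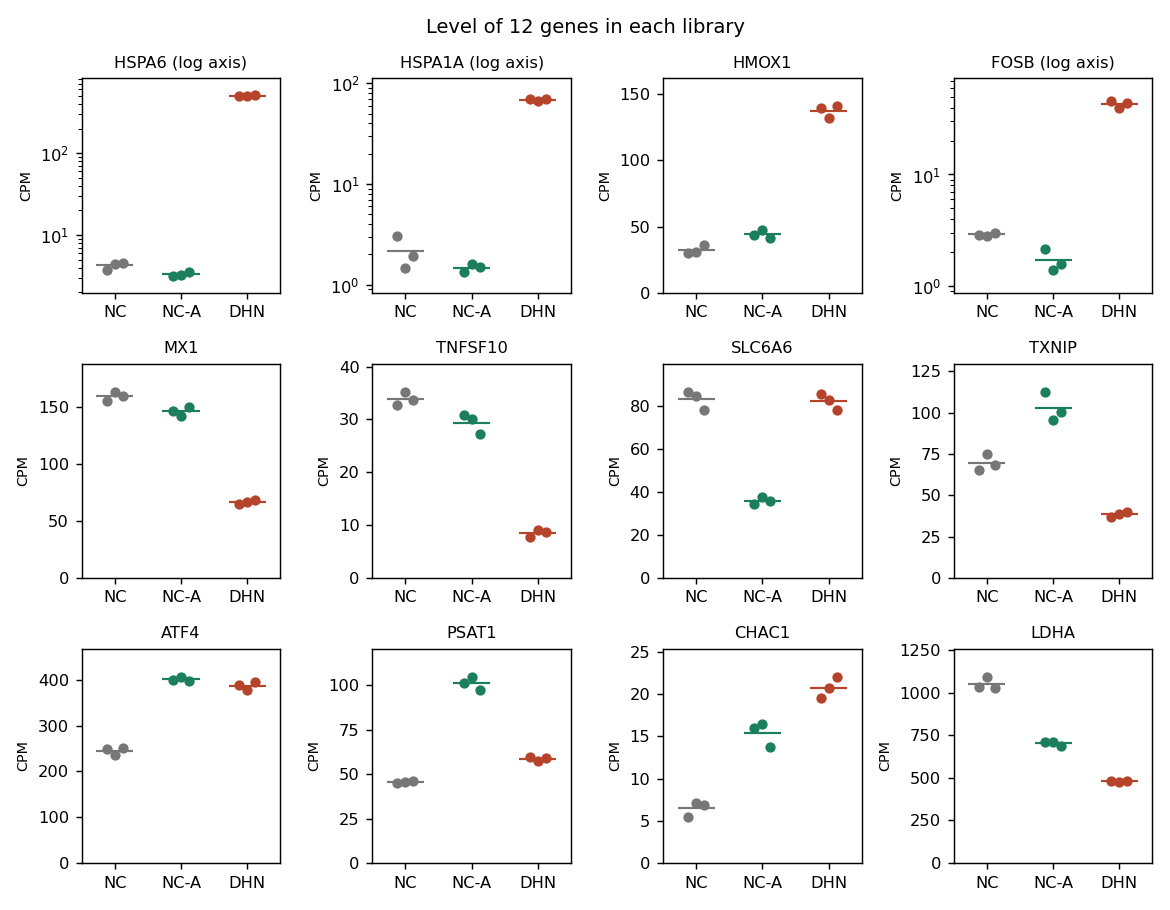
CPM of 12 genes in each NC, NC-A and DHN library; points are libraries, short lines are group means, and the axis is logarithmic where the title says so and otherwise starts at 0. HSPA6, HSPA1A, HMOX1 and FOSB are highest in DHN, SLC6A6 is low in NC-A only, and ATF4 is above NC in both treatments.

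Many NRF2 targets were higher after 1,2-DHN than after asparagine. Thioredoxin and peroxide genes had 6 of 8 members higher and 0 lower in DHN, median 0.71 (6, 0 and 0.70 without NC-A 1). Quinone and carbonyl reductases had 7 of 13 members higher and 1 lower in DHN, median 0.29 (7, 1 and 0.29 without NC-A 1). Glutathione genes had 7 of 13 members higher and 1 lower in DHN, median 0.24 (7, 0 and 0.19 without NC-A 1). Haem and iron genes had 4 of 8 members higher and 0 lower in DHN, median 0.18 (4, 0 and 0.17 without NC-A 1). Conjugate export and glutathione transferase genes went both ways, with 4 of 13 members higher and 3 lower in DHN, median -0.05 (3, 2 and -0.077 without NC-A 1). The shares called in the haem and iron list (50%) and in the conjugate list (53.8%) were near the 50.9% of tested protein-coding genes. HMOX1, the inducible haem oxygenase (chromosome 22, 35380361 to 35394214), measured 43.9, 47.02 and 41.2 CPM in NC-A 1 to 3 and 139, 132 and 141 in DHN 1 to 3 against 29.8, 30.99 and 35.9 CPM in NC. All DHN libraries were above all NC-A libraries, a log2 change of 1.64 ± 0.059 (SE, edgeR adjusted p = 7.6e-27). NQO1, which reduces quinones, measured 62.1, 62.6 and 59.6 CPM in NC-A 1 to 3 and 113, 117 and 124 in DHN 1 to 3, again without overlap, a log2 change of 0.94 ± 0.05 (SE, edgeR adjusted p = 1.1e-20). TXNRD1, thioredoxin reductase, measured 366, 352 and 355 CPM in NC-A and 598, 602 and 586 in DHN, a log2 change of 0.74 (edgeR adjusted p = 4.4e-22). OSGIN1, an oxidative stress growth inhibitor, changed by 1.77 (edgeR adjusted p = 2.4e-10). GCLM and GCLC, the subunits that start glutathione synthesis, changed by 0.76 and 0.67, GSR, which restores reduced glutathione, by 0.67, and the ferritin chains FTL and FTH1 by 0.78 and 0.62. Libraries were made with a stranded kit, but whether the counting used strand is not stated, so reads of an overlapping gene on the other strand cannot be told apart. Such overlaps covered 62.4% of the exon bases of FTH1, 38.9% of those of NEFM, 38.3% of those of XAF1 and 31.1% of those of PLAU. For UBB, PAX6, SNHG7, ICAM1, SPTB, SQSTM1 and CRYAB they covered 20.6% to 28.4%. A gene on the same strand overlapped 17.6% of the exon bases of NFE2L2 and 13.9% of those of OSGIN1.

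For some of these genes the difference held a part from each treatment. AKR1C1, a carbonyl reductase whose close relatives in the same family can share its reads, measured 3.99, 4.51 and 3.68 CPM in NC-A and 14.2, 12.9 and 13.7 in DHN against 7.71, 8.64 and 7.86 CPM in NC. Its log2 changes against NC were 0.75 in DHN and -0.999 in NC-A, and between the treatments 1.75 ± 0.14 (SE, edgeR adjusted p = 5.4e-15). Among regulators of the pathway, 5 of 8 tested members were higher in DHN and 1 lower, with a median log2 change of 0.33 (5, 1 and 0.33 without NC-A 1). NFE2L2, the gene of NRF2, changed by 0.39 (edgeR adjusted p = 2.8e-08), and its small MAF partners MAFF and MAFG by 0.73 and 0.67. Of the aryl hydrocarbon receptor genes, 6 of 8 tested members were higher in DHN and 0 lower, with a median log2 change of 0.54 (6, 0 and 0.52 without NC-A 1). TIPARP, a target that represses the receptor, measured 81.7, 85.4 and 87.5 CPM in NC-A and 139, 140.3 and 132 in DHN. CYP1B1, a target enzyme that oxidises aromatic compounds, measured 7.39, 6.61 and 6.72 CPM in NC-A and 9.75, 10.9 and 11.4 in DHN, a log2 change of 0.64 (edgeR adjusted p = 3.1e-05). The antioxidant response element (TGACNNNGC, both strands) lay in a promoter of 12 of 39 NRF2 list genes (30.8%) against 16.1% of all genes, but also in 28.6% of the chaperone genes and 28.4% of the amino acid response genes.

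Immediate early genes, which are switched on within minutes by growth signals and stress, were higher in DHN at 24 hours. In this list 21 of 24 tested members were higher in DHN and 2 lower, with a median log2 change of 1.10 (20, 1 and 1.11 without NC-A 1). ARC, a cytoskeleton-associated gene, measured 1.55, 0.799 and 1.09 CPM in NC-A 1 to 3 and 53.8, 57.7 and 62.97 in DHN 1 to 3, a log2 change of 5.67 ± 0.21 (SE, edgeR adjusted p = 3.0e-33). FOSB, an AP-1 subunit (chromosome 19, 45467995 to 45475179), measured 2.14, 1.38 and 1.55 CPM in NC-A 1 to 3 and 45.8, 39.4 and 44.3 in DHN 1 to 3. Its log2 change was 4.68 ± 0.17 (SE, edgeR adjusted p = 1.4e-30). FOS, its relative, measured 2.73, 1.96 and 2.47 CPM in NC-A and 32.7, 33.5 and 35.2 in DHN. EGR1, a zinc finger factor, measured 28.1, 28.9 and 25.6 CPM in NC-A and 122, 119 and 124 in DHN. In all 4 genes the groups were apart, as they were in 50.4% of tested genes. FOS and FOSB were also lower in NC-A than in NC, with log2 changes against NC of 3.02 in DHN and -0.80 in NC-A for FOS and 3.89 in DHN and -0.78 in NC-A for FOSB. Genes that dampen MAP kinase signalling had 11 of 15 members higher and 2 lower in DHN, median 0.45 (11, 1 and 0.48 without NC-A 1); DUSP1, a phosphatase of these kinases, changed by 0.50 (edgeR adjusted p = 1.4e-14).

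Other strongly separated genes had varied roles. For NEFM, RFPL4A and DUSP2 the NC-A libraries held only a few counts. NEFM, a neurofilament subunit, measured 0.222, 0.363 and 0.0574 CPM in NC-A and 9.99, 7.82 and 5.76 in DHN, a log2 change of 5.22 (edgeR adjusted p = 2.2e-15). RFPL4A, a ret finger protein-like gene with close copies that can share its reads, measured 0.222, 0.581 and 0.230 CPM in NC-A and 8.94, 10.96 and 8.36 in DHN, a log2 change of 4.78 (edgeR adjusted p = 2.5e-18). Both were also near 0 in NC. DUSP2, a phosphatase of MAP kinases and a member of that list, measured 0.222, 0.291 and 0.230 CPM in NC-A and 6.12, 5.05 and 5.76 in DHN, a log2 change of 4.48 (edgeR adjusted p = 4.9e-14). RASD1, a small GTPase induced by glucocorticoids, measured 1.11, 1.38 and 1.78 CPM in NC-A and 21.7, 25.7 and 26.1 in DHN. MYLIP, a ubiquitin ligase for the low-density lipoprotein receptor, measured 0.665, 0.945 and 0.747 CPM in NC-A and 10.2, 12.6 and 12.6 in DHN. The list of LXR targets that holds it had 2 of 6 members higher and 0 lower in DHN, median 0.052. SNAI1, a repressor of epithelial genes, measured 3.10, 2.76 and 2.41 CPM in NC-A and 28.9, 32.8 and 31.3 in DHN. The log2 changes of RASD1, MYLIP and SNAI1 were 4.08 (edgeR adjusted p = 5.3e-25), 3.91 (edgeR adjusted p = 4.5e-18) and 3.50 (edgeR adjusted p = 9.3e-26). ADM, the vasodilator peptide adrenomedullin, measured 9.46, 6.76 and 10.2 CPM in NC-A and 40.7, 42.1 and 44.1 in DHN, a log2 change of 2.25 (edgeR adjusted p = 1.3e-22). GADD45B, a stress sensor upstream of p38 and JNK, measured 30.1, 29.5 and 32.2 CPM in NC-A and 142, 147 and 157 in DHN, a log2 change of 2.28 (edgeR adjusted p = 3.0e-33).

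Targets of p53 had 15 of 24 members higher and 2 lower in DHN, median 0.35 (15, 2 and 0.32 without NC-A 1). The lower ones were TP53I3 (-0.48) and XPC (-0.33), and 7 members were not called, MDM2 (0.093) and FAS (-0.11) among them. CDKN1A, the p21 inhibitor of cyclin-dependent kinases, measured 294, 313 and 292 CPM in NC-A 1 to 3 and 461, 457 and 496 in DHN 1 to 3, a log2 change of 0.65 ± 0.04 (SE, edgeR adjusted p = 3.0e-18). Both treatments lay above NC for GADD45A, a growth arrest gene, with log2 changes against NC of 1.18 in DHN and 0.60 in NC-A. In the BCL2 family, 9 of 16 tested members were higher in DHN and 3 lower, with a median log2 change of 0.22 (7, 3 and 0.20 without NC-A 1). The death-promoting members BCL2L11 and BBC3 changed by 1.25 (edgeR adjusted p = 4.9e-13) and 0.82 (edgeR adjusted p = 2.3e-11), and the survival member MCL1 by -0.29 (edgeR adjusted p = 1.2e-08). The death ligand TNFSF10 (TRAIL) measured 30.8, 30.1 and 27.3 CPM in NC-A 1 to 3 and 7.66, 9.10 and 8.60 in DHN 1 to 3 against 32.7, 35.3 and 33.6 CPM in NC. Its DHN libraries were below all others, a log2 change between the treatments of -1.78 ± 0.09 (SE, edgeR adjusted p = 9.5e-22). Its decoy receptor TNFRSF10D measured 31.04, 30.9 and 29.2 CPM in NC-A and 60.9, 60.1 and 66.7 in DHN, a log2 change of 1.05 (edgeR adjusted p = 5.6e-18). CFLAR, which blocks the caspase of that receptor complex, changed by -0.64 (edgeR adjusted p = 1.2e-12). The list of TRAIL and death receptor genes had 3 of 12 members higher and 2 lower in DHN, median 0.022. The share of this list called, 41.7%, was near the 42.3% of all tested genes and below the 50.9% of tested protein-coding genes.

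Some large differences came with a level in NC-A well below that of NC. The DHN level was near that of NC for SLC6A6 but not for SLC5A3. SLC6A6, the taurine transporter (chromosome 3, 14402576 to 14489349), measured 34.3, 37.5 and 35.8 CPM in NC-A 1 to 3 and 85.5, 82.8 and 78.2 in DHN 1 to 3 against 86.6, 84.6 and 78.2 CPM in NC. The NC-A libraries were below all others, and the log2 changes against NC were -0.018 in DHN and -1.21 in NC-A. Between the treatments the change was 1.19 ± 0.06 (SE, edgeR adjusted p = 1.1e-21). SLC5A3, the inositol transporter, measured 149.8, 144 and 145 CPM in NC-A 1 to 3 and 264, 267 and 251 in DHN 1 to 3 against 368, 369.6 and 351 CPM in NC. Both treatments were below NC and asparagine the lower, and the log2 change between them was 0.84 ± 0.042 (SE, edgeR adjusted p = 2.0e-21). Both transporters carry organic osmolytes, and their list had 6 of 8 members higher and 0 lower in DHN, median 0.35 (6, 0 and 0.38 without NC-A 1). IL11, a cytokine of the interleukin-6 family, measured 56.5, 54.4 and 51.5 CPM in NC-A and 178, 189 and 188 in DHN against 139, 154 and 160.1 CPM in NC. Its log2 changes against NC were 0.29 in DHN and -1.48 in NC-A.

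Genes of the amino acid response did not separate as a block. ATF4, the factor of the response (chromosome 22, 39519695 to 39522685), measured 400.3, 407 and 398 CPM in NC-A 1 to 3 and 389, 377 and 395 in DHN 1 to 3 against 248, 236 and 251 CPM in NC. Both treatments were above NC, with log2 changes of 0.66 in DHN and 0.71 in NC-A. Between them the libraries did not overlap, but the change of -0.053 ± 0.036 (SE, edgeR adjusted p = 0.25) was not called and had a 95% interval of -0.13 to 0.02. ASNS, asparagine synthetase, measured 4.95, 5.52 and 5.17 CPM in NC-A 1 to 3 and 4.67, 4.48 and 4.28 in DHN 1 to 3 against 2.67, 1.59 and 1.99 CPM in NC. Both treatments were again above NC, and the log2 change between them was -0.22 ± 0.18 (SE, edgeR adjusted p = 0.34), with a 95% interval of -0.59 to 0.14. In GENCODE release 29, 44.6% of the exon bases of ASNS lie in exons of another gene model on the same strand, so its reads may have been lost or split. PHGDH, the first enzyme of serine synthesis, measured 214, 224 and 221 CPM in NC-A and 219, 205 and 224 in DHN, a log2 change of -0.028 with an interval of -0.11 to 0.053.

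The regulators of the response went both ways, and its enzymes were mostly lower in DHN. Of the regulators, 11 of 19 tested members were higher in DHN and 6 lower, with a median log2 change of 0.12 (11, 6 and 0.12 without NC-A 1). Against NC the regulators moved by a median of 0.38 in DHN and 0.36 in NC-A. ATF3, a stress-induced repressor, measured 112, 107 and 112 CPM in NC-A 1 to 3 and 245, 255 and 245 in DHN 1 to 3, a log2 change of 1.17 ± 0.041 (SE, edgeR adjusted p = 5.1e-27). PPP1R15A, which restarts translation, measured 482, 487 and 475 CPM in NC-A and 983, 932 and 1009 in DHN, a log2 change of 1.02 (edgeR adjusted p = 1.2e-26), and SESN2, a leucine sensor, changed by 0.80 (edgeR adjusted p = 1.5e-18). EIF4EBP1, a brake on translation, measured 271, 274 and 268 CPM in NC-A and 181, 187 and 200.01 in DHN and was higher in NC-A, a log2 change of -0.51 (edgeR adjusted p = 2.1e-13). Of the synthesis enzymes, 2 of 23 tested members were higher in DHN and 14 lower, with a median log2 change of -0.29 (3, 13 and -0.27 without NC-A 1). Their median change against NC was 0.047 in DHN and 0.40 in NC-A. PSAT1, the second enzyme of serine synthesis, measured 102, 105 and 97.2 CPM in NC-A 1 to 3 and 59.5, 57.2 and 58.9 in DHN 1 to 3 against 45.1, 45.6 and 46.3 CPM in NC. All NC-A libraries were above all DHN libraries, a log2 change of -0.79 ± 0.051 (SE, edgeR adjusted p = 1.3e-17). ALDH1L2, a mitochondrial folate enzyme, measured 50.1, 47.1 and 49.9 CPM in NC-A 1 to 3 and 24.1, 25.4 and 21.01 in DHN 1 to 3 against 23.6, 22.7 and 21.9 CPM in NC. Its DHN level was near that of NC, and the log2 change between the treatments was -1.07 ± 0.07 (SE, edgeR adjusted p = 2.2e-17).

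The tRNA synthetases, which load amino acids onto tRNA, followed the enzymes. Among them 2 of 20 tested members were higher in DHN and 13 lower, with a median log2 change of -0.28 (1, 13 and -0.27 without NC-A 1). The median change against NC was 0.069 in DHN and 0.33 in NC-A. WARS1, for tryptophan, measured 124, 121 and 119 CPM in NC-A and 75.8, 78.9 and 73.5 in DHN, a log2 change of -0.67 (edgeR adjusted p = 5.2e-16). It is also an interferon target. AARS1, for alanine, measured 262, 258 and 254 CPM in NC-A and 189, 189.6 and 185 in DHN, a log2 change of -0.46 (edgeR adjusted p = 4.0e-14). Of the amino acid transporters, 8 of 22 tested members were higher in DHN and 6 lower, with a median log2 change of 0.18 (7, 4 and 0.20 without NC-A 1). SLC3A2, the heavy chain shared by several exchangers, measured 175, 176 and 172 CPM in NC-A and 355, 337 and 354 in DHN against 123.2, 114 and 124 CPM in NC, a log2 change of 1.001 (edgeR adjusted p = 3.0e-25). SLC7A11, the cystine exchanger that pairs with it, measured 96.4, 87.1 and 90.2 CPM in NC-A and 84.5, 80.4 and 82.4 in DHN. Its small log2 change of -0.15 (edgeR adjusted p = 0.014) was not called without NC-A 1 (-0.11, edgeR adjusted p = 0.12). SLC38A1, a glutamine transporter, measured 235, 213 and 216 CPM in NC-A and 152, 164 and 161 in DHN and was lower in DHN, a log2 change of -0.47 (edgeR adjusted p = 6.0e-13).

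**Figure D4:**
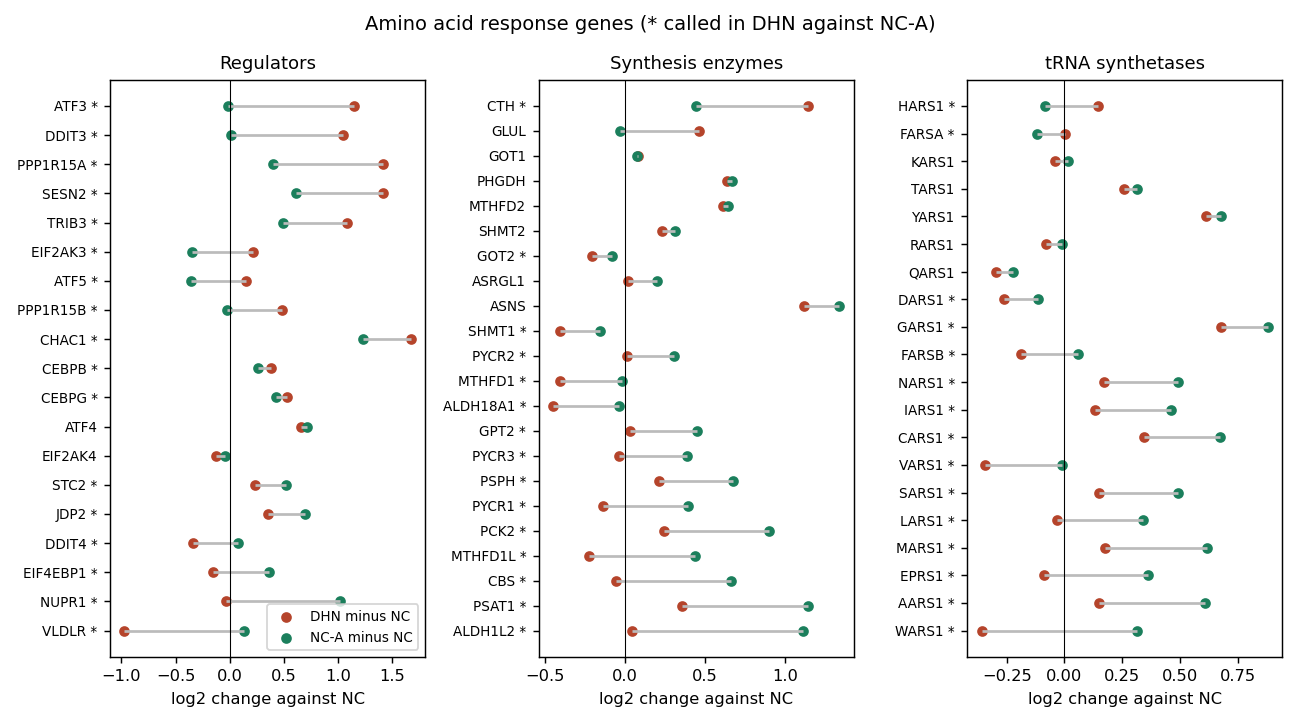
Log2 change against NC for tested genes of 3 amino acid response lists, in DHN (red) and in NC-A (green), ordered by the difference; a star marks genes called in DHN against NC-A. The red points lie to the right for the regulators at the top, such as ATF3 and PPP1R15A, and the green points lie to the right for most enzymes and tRNA synthetases, such as PSAT1 and WARS1. Both points of a gene share the NC libraries.

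The element that ATF4 binds (TGATGNAA, both strands) was held by a promoter of 21 of the 67 amino acid response genes with one in the table (31.3%; 84 were tested), against 4.46% of all genes. Of these 21 genes, 7 were called higher in DHN, 11 lower and 3 were not called. The element thus lay in genes of each direction, and 5 are shown to let them be compared: ATF3 and CHAC1 were higher in DHN, ASNS was not called, and CARS1 and MARS1 were lower. Capitals mark the element, which reads as its reverse complement in CHAC1, CARS1 and MARS1.
ATF3 (chr1:212565157-212565283, plus strand): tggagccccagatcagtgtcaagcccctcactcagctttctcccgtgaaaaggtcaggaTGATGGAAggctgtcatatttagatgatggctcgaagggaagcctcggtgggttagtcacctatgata
CHAC1 (chr15:40953221-40953329, plus strand): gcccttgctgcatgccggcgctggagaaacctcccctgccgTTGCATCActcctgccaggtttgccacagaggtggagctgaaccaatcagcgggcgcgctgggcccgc
ASNS (chr7:97872409-97872536, minus strand): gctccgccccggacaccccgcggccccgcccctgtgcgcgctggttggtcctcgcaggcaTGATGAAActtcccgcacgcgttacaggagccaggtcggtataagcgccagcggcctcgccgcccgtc
CARS1 (chr11:3057399-3057485, minus strand): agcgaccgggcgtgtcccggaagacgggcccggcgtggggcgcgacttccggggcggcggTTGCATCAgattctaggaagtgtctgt
MARS1 (chr12:57488004-57488092, plus strand): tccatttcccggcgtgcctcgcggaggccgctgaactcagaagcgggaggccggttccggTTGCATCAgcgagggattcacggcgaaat
It began 191 and 209 bases before the start in ATF3 and CHAC1, 68 bases before it in ASNS, and 2 and 4 bases before it in CARS1 and MARS1. CHAC1, which degrades glutathione, measured 15.97, 16.5 and 13.7 CPM in NC-A and 19.6, 20.7 and 22.1 in DHN, a log2 change of 0.44 (edgeR adjusted p = 2.1e-04). CARS1, for cysteine, changed by -0.33 (edgeR adjusted p = 5.3e-08) and MARS1, for methionine, by -0.44 (edgeR adjusted p = 1.3e-13).

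Interferon-stimulated genes were lower after 1,2-DHN than after asparagine. In this list 3 of 33 tested members were higher in DHN and 26 lower, with a median log2 change of -0.49 (3, 26 and -0.54 without NC-A 1). The median change against NC was -0.62 in DHN and -0.061 in NC-A. MX1, an antiviral GTPase (chromosome 21, 41420304 to 41459214), measured 147, 142 and 149.97 CPM in NC-A 1 to 3 and 65.1, 66.3 and 67.9 in DHN 1 to 3 against 155, 163 and 159.8 CPM in NC. The NC-A libraries lay slightly below NC and the DHN libraries far below both, a log2 change between the treatments of -1.14 ± 0.044 (SE, edgeR adjusted p = 1.3e-25). OAS3, which senses double-stranded RNA, measured 393, 384 and 375 CPM in NC-A and 187, 193 and 200.1 in DHN. GBP4, a guanylate-binding protein, measured 80.1, 76.4 and 75.01 CPM in NC-A and 27.7, 31.6 and 32.3 in DHN. In OAS3 and GBP4, as in MX1, the groups did not overlap. XAF1, an interferon-induced partner of apoptosis inhibitors, measured 14.1, 13.1 and 14.9 CPM in NC-A 1 to 3 and 4.35, 4.24 and 3.62 in DHN 1 to 3, a log2 change of -1.80 ± 0.13 (SE, edgeR adjusted p = 9.6e-17). IDO1, which breaks down tryptophan, measured 6.73, 7.78 and 7.52 CPM in NC-A 1 to 3 and 1.93, 1.19 and 1.998 in DHN 1 to 3, a log2 change of -2.12 ± 0.2 (SE, edgeR adjusted p = 1.6e-12). The NC-A means of XAF1 and IDO1 were above those of NC, with log2 changes against NC of -1.35 in DHN and 0.44 in NC-A for XAF1 and -1.81 in DHN and 0.31 in NC-A for IDO1.

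Genes that present antigens on MHC class I went with them. Of this list 1 of 15 tested members were higher in DHN and 12 lower, with a median log2 change of -0.49 (0, 12 and -0.51 without NC-A 1). HLA-B, a class I heavy chain, measured 613, 642 and 648 CPM in NC-A and 408, 389.9 and 398 in DHN, a log2 change of -0.67 (edgeR adjusted p = 2.1e-19); reads of class I genes can be shared between them. TAP1, the peptide transporter, changed by -0.58 (edgeR adjusted p = 9.7e-14). CTSS, a lysosomal protease of antigen processing, measured 29.4, 22.3 and 24.9 CPM in NC-A and 9.67, 9.87 and 9.15 in DHN. TNFSF13B, a B cell survival factor, measured 6.06, 5.596 and 4.94 CPM in NC-A and 1.85, 1.67 and 2.60 in DHN. Other inflammatory genes went both ways, with 7 of 19 members higher and 4 lower in DHN, median -0.029. ICAM1, an adhesion molecule, changed by -0.89 (edgeR adjusted p = 9.8e-22) and PTGS2, an inducible prostaglandin synthase, by 1.17 (edgeR adjusted p = 9.2e-18).

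Matrix genes were lower in DHN. Of the collagens, 0 of 16 tested members were higher in DHN and 12 lower, with a median log2 change of -0.58 (1, 11 and -0.60 without NC-A 1). COL6A3, a chain of the beaded collagen, measured 306, 279.6 and 281 CPM in NC-A 1 to 3 and 142, 135 and 142 in DHN 1 to 3, a log2 change of -1.05 ± 0.042 (SE, edgeR adjusted p = 3.0e-25). COL1A1, the main fibrillar chain, measured 1039, 1047 and 1046 CPM in NC-A and 679, 677 and 720.3 in DHN. COL4A1, a basement membrane chain as in the lens capsule, changed by -0.65 (edgeR adjusted p = 2.4e-17). Matrix, integrin and mesenchymal genes had 5 of 25 members higher and 18 lower in DHN, median -0.36 (5, 18 and -0.37 without NC-A 1). FN1, fibronectin, measured 2196, 2109 and 2143 CPM in NC-A and 1343, 1349 and 1367 in DHN, a log2 change of -0.67 (edgeR adjusted p = 1.7e-21). LAMB1, a laminin chain, changed by -0.77 (edgeR adjusted p = 4.5e-22), and ITGA3, a laminin receptor subunit, by -0.71 (edgeR adjusted p = 2.6e-22).

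Signalling by TGF-beta and BMP showed both directions, with 12 of 18 members higher and 5 lower in DHN, median 0.32 (12, 5 and 0.30 without NC-A 1). LTBP1, which stores latent TGF-beta in the matrix, measured 196, 201 and 198 CPM in NC-A and 109, 109 and 105 in DHN. ID2, a BMP target, measured 7.32, 9.30 and 8.44 CPM in NC-A and 27.96, 30.7 and 30.02 in DHN. The log2 changes were -0.88 (edgeR adjusted p = 1.5e-22) and 1.83 (edgeR adjusted p = 3.0e-19), and for ID2 the NC level lay between, at 11.8, 16.1 and 13.3 CPM in NC. Fibroblast markers summed to 1215 to 1220 CPM in NC-A, 823 to 875 CPM in DHN and 1387 to 1466 CPM in NC, most of it COL1A1. Of their 10 members 7 were tested, with 1 higher and 3 lower in DHN, and DPT had no count in the 6 libraries. COL1A1 is also in the collagen list, so this sum is not separate from the matrix result, and all libraries come from a single line. Whether the marker level has a part in the matrix result was not tested. In a bulk sample fewer cells of a type and less RNA per cell cannot be told apart.

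Mitosis and replication genes differed in opposite directions. Of the mitosis genes, 0 of 26 tested members were higher in DHN and 22 lower, with a median log2 change of -0.30 (0, 22 and -0.31 without NC-A 1). Against NC their median change was -0.47 in DHN and -0.085 in NC-A. CENPF, a kinetochore protein, measured 866, 833 and 888 CPM in NC-A and 592, 593 and 537 in DHN, a log2 change of -0.59 (edgeR adjusted p = 3.9e-17). PLK1, a mitotic kinase, changed by -0.50 (edgeR adjusted p = 6.6e-13). DNA replication genes went the other way, with 17 of 29 tested members higher in DHN and 3 lower. Their median log2 change was 0.15 (14, 2 and 0.16 without NC-A 1), and against NC 0.082 in DHN and -0.093 in NC-A. In DHN 13 members were higher and 6 lower than in NC, and in NC-A 0 were higher and 11 lower. CDC6, which loads the replicative helicase, measured 57.1, 62.1 and 58.99 CPM in NC-A and 114, 111 and 111 in DHN, a log2 change of 0.91 (edgeR adjusted p = 1.4e-19). CCNE1, a cyclin of S phase entry, changed by 0.49 (edgeR adjusted p = 2.7e-13). Cytosolic ribosomal protein genes had 1 of 45 members higher and 18 lower in DHN, median -0.088 (1, 20 and -0.095 without NC-A 1). The share called, 42.2%, was near the 42.3% of all tested genes and below the 50.9% of tested protein-coding genes. The calls were nearly all lower, while all tested genes split into 21.1% higher and 21.2% lower. Relative to NC, 28 members were higher and 0 lower in NC-A, and 14 were higher and 4 lower in DHN. Nuclear genes of the respiratory chain had 3 of 31 members higher and 15 lower in DHN, median -0.16 (2, 14 and -0.17 without NC-A 1). Of these, 58.1% were called, beside 50.9% of tested protein-coding genes.

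Glycolysis genes were below NC in both treatments and lower in DHN. Between the treatments 3 of 23 tested members were higher in DHN and 14 lower, with a median log2 change of -0.24 (2, 14 and -0.22 without NC-A 1). Their median change against NC was -0.47 in DHN and -0.37 in NC-A. LDHA, lactate dehydrogenase, measured 711, 711 and 686 CPM in NC-A 1 to 3 and 484, 475 and 479 in DHN 1 to 3 against 1032, 1094 and 1028 CPM in NC. The NC-A libraries lay between the others, and the log2 change between the treatments was -0.55 ± 0.035 (SE, edgeR adjusted p = 1.3e-17). HK2, the inducible hexokinase, measured 127, 122 and 127 CPM in NC-A and 77.9, 71.9 and 70.9 in DHN against 127, 124 and 126 CPM in NC, and its NC-A and NC libraries overlapped. BNIP3, a mitophagy receptor and a hypoxia target, measured 215, 206 and 203 CPM in NC-A and 129, 139.8 and 136 in DHN against 327, 332 and 329.7 CPM in NC. Hypoxia targets outside glycolysis had 7 of 19 members higher and 8 lower in DHN, median -0.084. TXNIP, which blocks thioredoxin and glucose uptake, measured 113, 95.3 and 101 CPM in NC-A 1 to 3 and 36.7, 38.8 and 39.9 in DHN 1 to 3 against 65.3, 74.97 and 68.3 CPM in NC. The log2 change between the treatments was -1.41 ± 0.06 (SE, edgeR adjusted p = 1.3e-22). Its changes against NC were opposite, -0.85 in DHN and 0.56 in NC-A.

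Other genes also moved from NC in opposite directions. SLFN5, a Schlafen protein, measured 95.5, 96.8 and 94.3 CPM in NC-A and 42.9, 37.3 and 39.2 in DHN against 62.2, 58.1 and 56.4 CPM in NC. It was below NC in DHN and above it in NC-A. In the other direction, TENT5C, a poly(A) polymerase, measured 1.11, 0.799 and 1.09 CPM in NC-A and 7.25, 7.05 and 7.90 in DHN against 1.37, 2.12 and 1.86 CPM in NC. TUBA4A, an alpha tubulin, measured 3.70, 3.49 and 3.62 CPM in NC-A and 16.1, 14.8 and 18.7 in DHN against 6.09, 5.89 and 5.999 CPM in NC. Some of the largest falls had other patterns. SULT1C2, a sulfotransferase, measured 12.2, 13.4 and 10.9 CPM in NC-A and 3.30, 3.15 and 4.37 in DHN against 4.79, 4.44 and 5.87 CPM in NC. ZMAT1, a zinc finger gene, measured 7.54, 8.21 and 7.52 CPM in NC-A and 2.34, 2.57 and 2.83 in DHN against 2.61, 2.27 and 2.96 CPM in NC. For SULT1C2 and ZMAT1 the larger move from NC was that of asparagine, with log2 changes of -0.47 in DHN and 1.26 in NC-A for SULT1C2 and -0.0068 in DHN and 1.56 in NC-A for ZMAT1. APLN, the peptide ligand of the apelin receptor, measured 10.9, 11.8 and 11.03 CPM in NC-A and 3.79, 4.62 and 3.997 in DHN against 17.3, 14.2 and 16.2 CPM in NC and was below NC in both treatments, a log2 change between them of -1.42 (edgeR adjusted p = 1.2e-12). HSH2D, an adaptor of lymphocyte signalling, changed by -1.43 (edgeR adjusted p = 1.2e-08) and the non-coding gene FAM66B by -1.37 (edgeR adjusted p = 1.3e-06).

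Some genes moved by like amounts in both treatments. Besides ATF4, PHGDH and SLC7A11, the zinc finger gene ZNF441 was above NC in both, with log2 changes of 0.79 in DHN and 0.75 in NC-A and a 95% interval of the difference of -0.16 to 0.24. SPTB, a spectrin, ATP8B3, a lipid flippase, ADGRB2, an adhesion receptor, and B4GALNT4, a glycosyltransferase, were below NC in both. Their differences between the treatments had 95% intervals of -0.25 to 0.21, -0.17 to 0.19, -0.21 to 0.14 and -0.20 to 0.12 on the log2 scale. These 8 genes were selected for a 95% interval that lies within 0.25 of 0, which is a description and no test. The interval may leave out 0, as for SLC7A11 (-0.25 to -0.047), which was called lower in DHN.

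Lens markers were sparse in this line. Of 28 lens markers, 8 were tested and 3 were called higher in DHN, CRYAB, PAX6 and PROX1, and CRYGA, CRYGB, CRYGC, CRYGD and AQP5 had no count in the 6 libraries. PAX6, the master factor of eye development, measured 23.8, 21.6 and 23.7 CPM in NC-A and 30.9, 29.8 and 28.8 in DHN, a log2 change of 0.37 (edgeR adjusted p = 8.0e-05). PROX1, a factor of fibre differentiation, was near the limit of detection at 0.443, 0.799 and 0.115 CPM in NC-A and 0.967, 1.43 and 1.16 in DHN, and its call was lost without NC-A 3 or without DHN 2. The summed lens markers were 47.0 to 50.4 CPM in NC-A and 63.9 to 68.8 CPM in DHN, sums that include CRYAB and PAX6. The share of tested lens markers called, 37.5%, was below the 42.3% of all tested genes and the 50.9% of tested protein-coding genes. Their median log2 change was 0.17, and 0.033 without NC-A 1. Immune cell markers summed to 1.92 to 2.76 CPM in NC-A and 3.06 to 5.48 CPM in DHN.

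**Figure D5:**
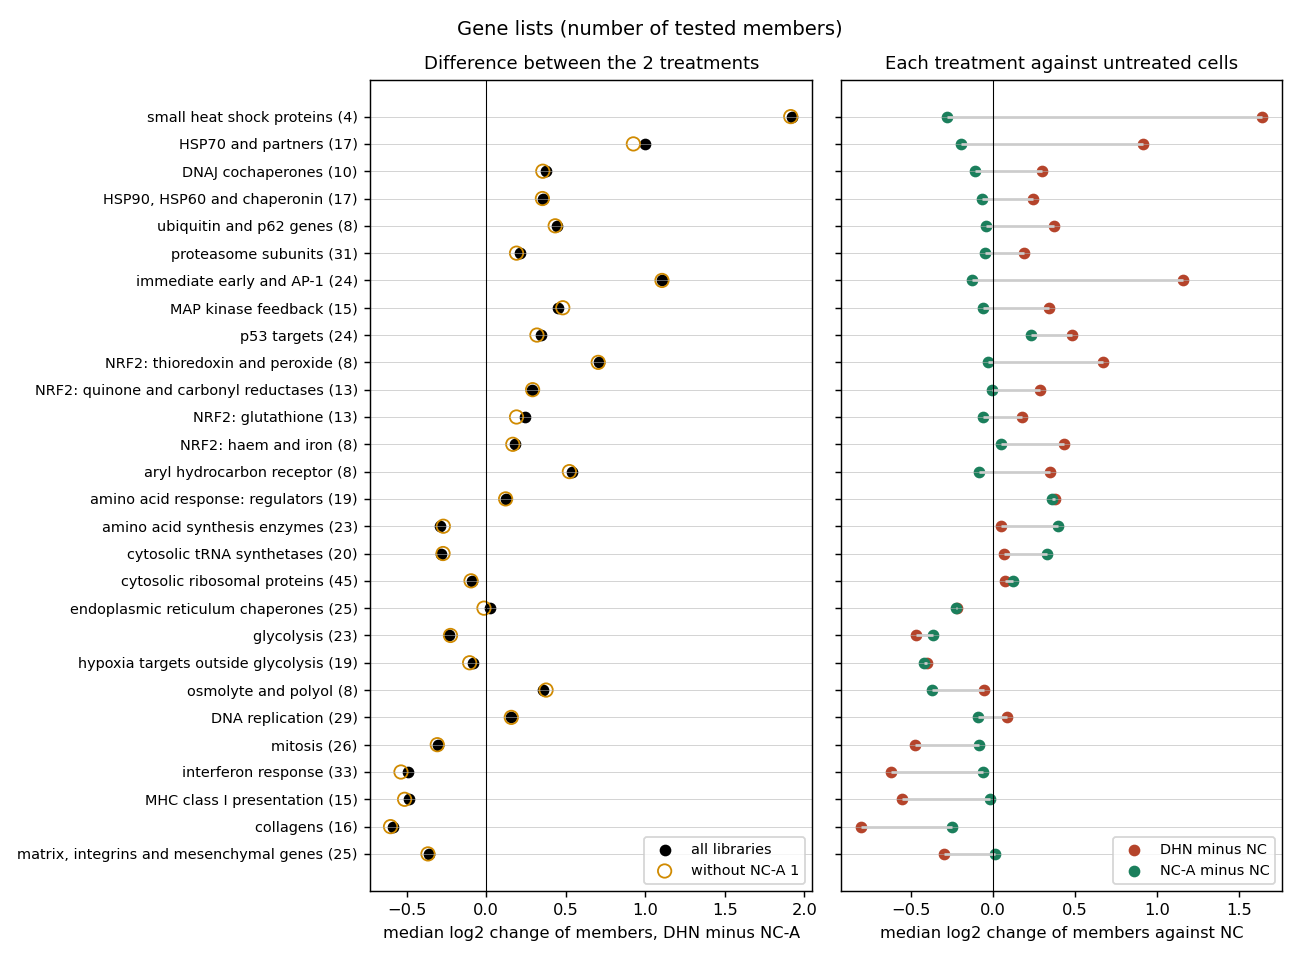
Median log2 change of the tested members of 28 gene lists. Left, DHN minus NC-A with all libraries (black) and without NC-A 1 (open circles). Right, each treatment against NC, where the 2 points share the NC libraries. Small heat shock proteins have the highest median of these lists, 1.92, and collagens the lowest, -0.58; open circles lie on or near the black points.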

How the data were processed

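The authors deposited raw read counts per gene symbol, whole numbers in 1 table for all 12 libraries. Libraries came from total RNA with a stranded kit, per the labels' protocols, and reads were aligned to hg38 with Bowtie, per the submitters' processing notes. For the counting tool, its strand setting and the annotation, the labels give nothing. Of 60641 symbols, 17889 had counts high enough for edgeR's filterByExpr (4 groups). Library sizes were scaled by TMM, and edgeR 4.0.16 (in R 4.3.3) fitted a robust quasi-likelihood model, 1 mean for each group, to all 12 libraries, with Benjamini-Hochberg adjustment over all tested genes and a threshold of 0.05. CPM were computed from the counts and scaled library sizes. Standard errors and 95% intervals come from the fitted weights and the moderated dispersion, and the procedure was tested on simulated data. Replicates varied by 4.60% on top of counting error, by edgeR's common dispersion.

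Gene types and places come from GENCODE release 29 (GRCh38), matched by symbol. Promoters come from RefSeq (GRCh38.p14).

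The comparison, the 53 gene lists (943 memberships) and the rule for named genes were chosen with earlier results of these data known, so no list is independent evidence of its own direction. After the table was read, 2 list entries were dropped as a duplicate or a pseudogene and 1 was given its older symbol. The rule took up to 12 rises and 12 falls among genes called with and without NC-A 1, with a mean of at least 50 counts, no overlap of the libraries and no placeholder name. It added the 4 members of each list with the smallest p, a set of 12 stress and transport genes, genes that moved alike or in opposite directions against NC, and genes in which NC-A 1 deviated. CHORDC1, CHAC1 and CARS1 were named after their values were seen. A few of the named genes are not reported here. Alternatives tried were DESeq2 1.42.0, limma-voom (limma 3.58.1), edgeR with relative log expression scaling, with no filter or with a minimum change of 1.2-fold, only the 6 libraries compared, a replicate block, thinning to the smallest total and each library left out. Chosen after seeing the data were a fit of 5 libraries without NC-A 1 and one of protein-coding genes only.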

Additional observations from a re-analysis of the deposited data

How the results depend on the processing

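With DESeq2, limma-voom, relative log expression scaling, no filter, the 6 libraries alone or thinning, the number of called genes was 6984 to 7537, and none of these moved a count of calls by over 1.5 times. A minimum change of 1.2-fold left 2910 called genes, 1481 higher and 1429 lower in DHN, since it sets aside small differences. Protein-coding genes alone gave 539 genes with at least a 2-fold change. Symbols that GENCODE release 29 does not hold, most tRNA synthetases among them, dropped out of that fit. Leaving out each library gave 6695 to 7637 called genes, 3405 to 3842 higher, 3266 to 3801 lower and 740 to 853 with at least a 2-fold change. Of called genes, 49.97% were higher in DHN in the reported fit and up to 53.4% under the alternatives. Replicate numbers did not pair the libraries (r of their deviations 0.066, -0.043 and 0.048), and the replicate block gave 7469 calls, 812 of them at least 2-fold.

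Among the named genes, those that changed sign were ones near 0. SPTB was 0.016 with thinning. Without single libraries, the ranges were -0.067 to 0.049 for SPTB, -0.13 to 0.053 for ADGRB2, -0.091 to 0.073 for ATP8B3, -0.052 to 0.013 for PHGDH and -0.028 to 0.12 for ZNF441. Calls were lost for SLC7A11 without NC-A 1 or DHN 2, for PROX1 without NC-A 3 or DHN 2, and for CARS1, CHAC1, MCL1, MT-CO2, PAX6 and SLC7A11 at the 1.2-fold minimum. Limma-voom called EEF1A1P11 (2.11) and POTEE (1.98), which the reported fit did not. Of 2332 list counts over these settings, 177 moved by over 1.5 times.

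Precision is limited by 3 libraries a group and, for genes near 1 CPM, by depth.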

Other observations

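Called long intergenic and antisense RNAs were mostly lower in DHN than in NC-A. Called pseudogenes went the other way, with 81 processed ones higher and 27 lower (60 and 29 without NC-A 1). Of the other pseudogenes, 56 were called higher and 40 lower. Of 13310 tested protein-coding genes 50.9% were called, 3461 higher in DHN and 3313 lower. Among 734 long intergenic RNAs 22.6% were called, 48 higher and 118 lower, with a median log2 change over all tested ones of -0.24 (-0.22 without NC-A 1). Among 976 antisense RNAs 15.0% were called, 35 higher and 111 lower, with a median of -0.18 (-0.15 without NC-A 1). Their levels are lower than those of protein-coding genes, and the part of level and depth in these shares was not tested. Antisense RNAs took 0.262% to 0.271% of the counts in NC-A, 0.2417% to 0.2504% in DHN and 0.224% to 0.234% in NC.

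Host genes of small nucleolar RNAs, which guide the modification of ribosomal RNA, had 6 of 16 members higher and 1 lower in DHN, median 0.18 (6, 1 and 0.18 without NC-A 1). The share called, 43.8%, is near the 42.3% of all tested genes. SNHG12 measured 35.6, 36.5 and 35.96 CPM in NC-A and 62.5, 64.01 and 60.7 in DHN, a log2 change of 0.79 (edgeR adjusted p = 1.4e-10), and SNHG7 11.5, 14.1 and 13.4 CPM in NC-A and 24.9, 25.3 and 28.9 in DHN. The CLK kinases and SR splicing factors had 8 of 15 members higher and 1 lower in DHN, median 0.18 (7, 0 and 0.10 without NC-A 1), and CLK1, a kinase of SR proteins, measured 51.96, 53.4 and 57.3 CPM in NC-A and 94.3, 85.4 and 80.6 in DHN, a log2 change of 0.67 (edgeR adjusted p = 1.0e-13). Of the lysosome and autophagy genes, 10 of 22 tested members were higher in DHN and 5 lower, with a median log2 change of 0.054 (9, 4 and 0.043 without NC-A 1). GLA, the lysosomal alpha-galactosidase, measured 32.4, 30.2 and 32.7 CPM in NC-A and 82.1, 82.8 and 80.4 in DHN, a log2 change of 1.36 (edgeR adjusted p = 5.0e-23), GABARAPL1, an autophagosome protein, changed by 1.23 (edgeR adjusted p = 4.2e-23), and NPC1, a cholesterol exporter of lysosomes, by -0.54 (edgeR adjusted p = 1.1e-15). Cholesterol synthesis had 4 of 23 members higher and 11 lower in DHN, median -0.095 (3, 11 and -0.12 without NC-A 1). Matrix proteases and their inhibitors went both ways, with 5 of 16 members higher and 6 lower in DHN, median 0.0079 (6, 6 and 0.034 without NC-A 1). MMP1, a collagenase, measured 0.443, 0.0727 and 0.172 CPM in NC-A and 2.82, 4.19 and 3.30 in DHN, a log2 change of 3.91 (edgeR adjusted p = 1.3e-10) from few counts in NC-A. MMP13, another collagenase, measured 4.36, 4.21 and 5.28 CPM in NC-A and 1.37, 1.001 and 1.35 in DHN and was lower in DHN. PLAU, the urokinase, measured 518, 535 and 508 CPM in NC-A and 316, 297 and 314 in DHN and was also lower in DHN. MT-ND1, a mitochondrially encoded subunit of complex I, was higher in DHN, by 0.42 (edgeR adjusted p = 5.5e-09), while MT-CO2, a subunit of complex IV, was lower, by -0.24 (edgeR adjusted p = 1.9e-05).

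NC-A 1 deviated in processed pseudogenes in particular among the gene types measured. Of 246 with a mean of at least 50 counts, 169 lay at least 0.5 lower (log2 CPM) in NC-A 1 than in the mean of NC-A 2 and NC-A 3, with a median of -1.91, and 84 of 11162 protein-coding genes did, with a median of 0.0069. POTEE, a protein-coding actin fusion gene with near-identical relatives, measured 0.296, 21.1 and 22.2 CPM in NC-A 1, 2 and 3. Split by the share of their 50-base words found in protein-coding transcripts, the median was -1.14 in 64 pseudogenes sharing at least 50 percent and -2.67 in 182 sharing less. Of the latter, 20 shared none, and their median was 0.0056, with 1 of them lower by at least 1. These 3 medians follow no single trend with the shared part, the split was chosen after the data were seen, and its origin was not tested. DHN-A 2 also had a low share of pseudogene counts, 0.291%. The median log2 change of tested processed pseudogenes between the treatments was 0.35 with NC-A 1 and 0.11 without it.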
